A study of Sus scrofa with 13 samples.

Results

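Inflammatory cytokines and the genes that restrain them were followed in 13 pig liver libraries by bulk RNA sequencing. The genes were chosen by name and with earlier results of these data known, so that their shares beside those of all genes are descriptions. The genes comprise the cytokines TNF, IL1A, IL6, IL18 and IL10, and the cytokine antagonist IL1RN. The others are the feedback inhibitors SOCS3, NFKBIA and TNFAIP3, and the adhesion molecule ICAM1. Of these 10 names, 9 had a row among the 35670 genes of the count table, and all 9 were among the 16481 genes past the filter on low counts. IL1RN had no row under that symbol and is not analysed here.

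The animals were female Yorkshire pigs without a genetic modification in the labels. Baseline is liver before any ischemia or cells, with 2 libraries labelled 1a and 2. The 3 ischemic controls had 45 min of warm ischemia with the hepatic artery, portal vein and hepatic veins clamped, then 6 h of reperfusion, and no cells. Arterial and portal infusion, with 4 libraries each, underwent identical ischemia and reperfusion and were given 3 M (M, mega) human bone marrow mesenchymal stromal cells (BM-MSC) per kg body weight into the hepatic artery or the portal vein. The labels do not say whether the baseline biopsies came from pigs that also gave a library at 6 h. In 1 arterially infused pig of the study the hepatic artery had a spasm or dissection. In 1 portally infused pig the experiment was stopped early after a pulmonary air embolism. The labels do not say whether either pig is among the 4 sequenced of its group. Every library is a whole-tissue biopsy, and a lower level can mean fewer cells of a type or less RNA per cell, which cannot be told apart. The libraries do not keep the strand of the RNA, so that reads of a gene and of an antisense partner are counted together. Reads of the human cells that map to the pig genome would be counted as pig reads, and their part in the values was not tested.

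TNF and interleukin-1 are early signals of tissue injury, made largely by macrophages. They act through receptors that release NF-kB, a transcription factor held in the cytoplasm by inhibitor proteins, and NF-kB then switches on further cytokines, adhesion molecules and its own inhibitors. NFKBIA encodes the inhibitor IkB-alpha, which takes NF-kB back out of the nucleus, and TNFAIP3 encodes A20, which shuts off signalling at the receptor complex. In a parallel loop, interleukin-6 signals through STAT3 in hepatocytes and drives the acute phase response, and STAT3 induces SOCS3, which blocks the receptor that activated it. The inhibitor genes are therefore both targets and brakes of the same pathways.

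The total count on genes was between 18975413 and 35949178 per library with a median of 30260803. With edgeR (quasi-likelihood test, p adjusted by Benjamini-Hochberg over the 16481 genes) no gene passed the threshold of 0.05 in any of the 6 comparisons made, so the share of genes called was 0% in each and none of the 9 genes was called. Livers of a group differed widely, the common biological coefficient of variation being 0.729. The summed level of 6 hepatocyte markers was between 840900 and 2776000 normalized counts, and each of the 6 was detected. Ischemic control 2 stood apart. It was the highest of the 13 libraries for 6 of the 9 genes, TNF, IL1A, IL6, IL10, NFKBIA and ICAM1, where it was the highest library for 10% of all genes tested. It also had the highest sums of Kupffer cell and macrophage markers (46900 normalized counts against 16290 to 37650 elsewhere), of neutrophil markers (11450 against 510.3 to 7971) and of erythroid markers (29060 against 994.3 to 18160), over 7 of 8, 5 of 7 and 3 of 3 listed genes. Of the macrophage markers, C1QA, C1QB and CSF1R were the highest of all libraries there, whereas CD163 at 4534, MARCO, CD68 and VSIG4 were not. CD14, the lipopolysaccharide co-receptor of monocytes and macrophages, was at 77780 there and between 15560 and 28220 in the other libraries. Of the neutrophil markers, S100A8 and S100A12 were highest there. CSF3R at 767 and ELANE at 22.8 were not, being highest in arterial infusion 4 (1219) and arterial infusion 1 (26.8). The granule gene MPO was at 0 there, as it was in 9 of 13 libraries. Of the erythroid markers, HBB and AHSP were highest there, whereas ALAS2 at 551.6 was not, against 1202 in arterial infusion 4. The part of these cells in the cytokine values was not tested, and the differences of the 9 genes from controls or baseline are given with and without this library. In arterial infusion 1, portal infusion 1 and portal infusion 4 only 887, 322 and 492 genes had between 1 and 9 reads, against 1744 to 5358 in the other libraries, so that a weakly expressed gene was more often at 0 in those 3. Levels below are counts divided by DESeq2 size factors, called normalized counts, given as mean ± SD where groups are summarised. They are compared between libraries and not between genes, since they are not corrected for length.

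TNF (Sscrofa11.1, chromosome 7 from 23699635 to 23702393) was low in 12 of 13 libraries. It was at 30.9 and 45.4 normalized counts at baseline and at 13.5, 4887 and 23.1 in ischemic controls 1 to 3. After arterial infusion it was at 25.0, 53.9, 21.9 and 5.24, and after portal infusion at 47.8, 13.1, 38.1 and 47.9. Ischemic control 2 was the single high library, with 2791 reads where the others had between 5 and 58. It was 90.8 times the next library, and no other of the 16481 genes had a larger ratio of this library to the next. The other controls lay below both baseline libraries.

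IL1A encodes interleukin-1 alpha, a cytokine that dying cells release, and lies on chromosome 3 from 43718320 to 43731668. It was at 3.085 and 13.7 at baseline and at 13.5, 273 and 4.34 in the controls. All 4 arterial livers were at or near the limit of detection, with 0 in livers 1 to 3 and 6.29 in liver 4. The portal livers were at 0, 4.67, 4.01 and 0. Among 1341 genes of similar level, 46.4% were at 0 in arterial liver 1, 34% in arterial liver 2 and 5.22% in arterial liver 3. The share was 65% in portal liver 1, 60.1% in portal liver 4 and 29.9% in ischemic control 2. With 0 reads observed, up to 3 remain possible by counting error alone, worth between 2.17 and 5.25 normalized counts in these libraries. Low baseline and control values therefore cannot be separated from the infused livers one by one. In arterial liver 1 and portal livers 1 and 4, with few genes of low count, that bound may be too low. Ischemic control 2 again stood far above the rest, at 156 reads and 19.9 times the next library. IL1B, the other interleukin-1 gene, had no row under its symbol.

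IL6, on chromosome 9 from 91506421 to 91510830, varied within every group. Baseline libraries were at 12.3 and 90.7, and controls at 98.9, 103 and 9.395. The arterial livers were at 0, 12.1, 3.245 and 19.9, and the portal livers at 0, 71.0, 6.02 and 0. All 8 infused livers lay below ischemic controls 1 and 2, portal liver 2 being the highest of them, whereas ischemic control 3 lay among them. The 3 zeros were in the libraries with few genes of low count. Among 1466 genes of similar level, 13% were at 0 in arterial liver 1, 33.2% in portal liver 1 and 19.4% in portal liver 4, against at most 4.09% in the other libraries.

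IL18 is held as a precursor in resident cells and cut by caspase-1. It lies on chromosome 9 from 39839959 to 39861258. It was at 338 and 332 at baseline, at 143, 357 and 119 in the controls, at 248, 297, 317 and 397 after arterial infusion, and at 131, 281, 294 and 49.1 after portal infusion. Controls 1 and 3 were below both baseline libraries and ischemic control 2 was above them. The arterial livers had the narrowest range of the 3 groups at 6 h, and livers 2 to 4 after arterial infusion lay above every portal liver.

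IL10, the cytokine that dampens macrophage activation, lies on chromosome 9 from 67400727 to 67405941. It was at 34.7 and 22.2 at baseline and at 41.9, 129.6 and 51.3 in the controls, all 3 of which were above baseline. After arterial infusion it was at 5.35, 33.4, 35.7 and 47.2, and after portal infusion at 0, 65.4, 68.2 and 103. Both infused groups overlapped the controls and each had 1 low library, arterial liver 1 and portal liver 1.

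**Figure D1:**
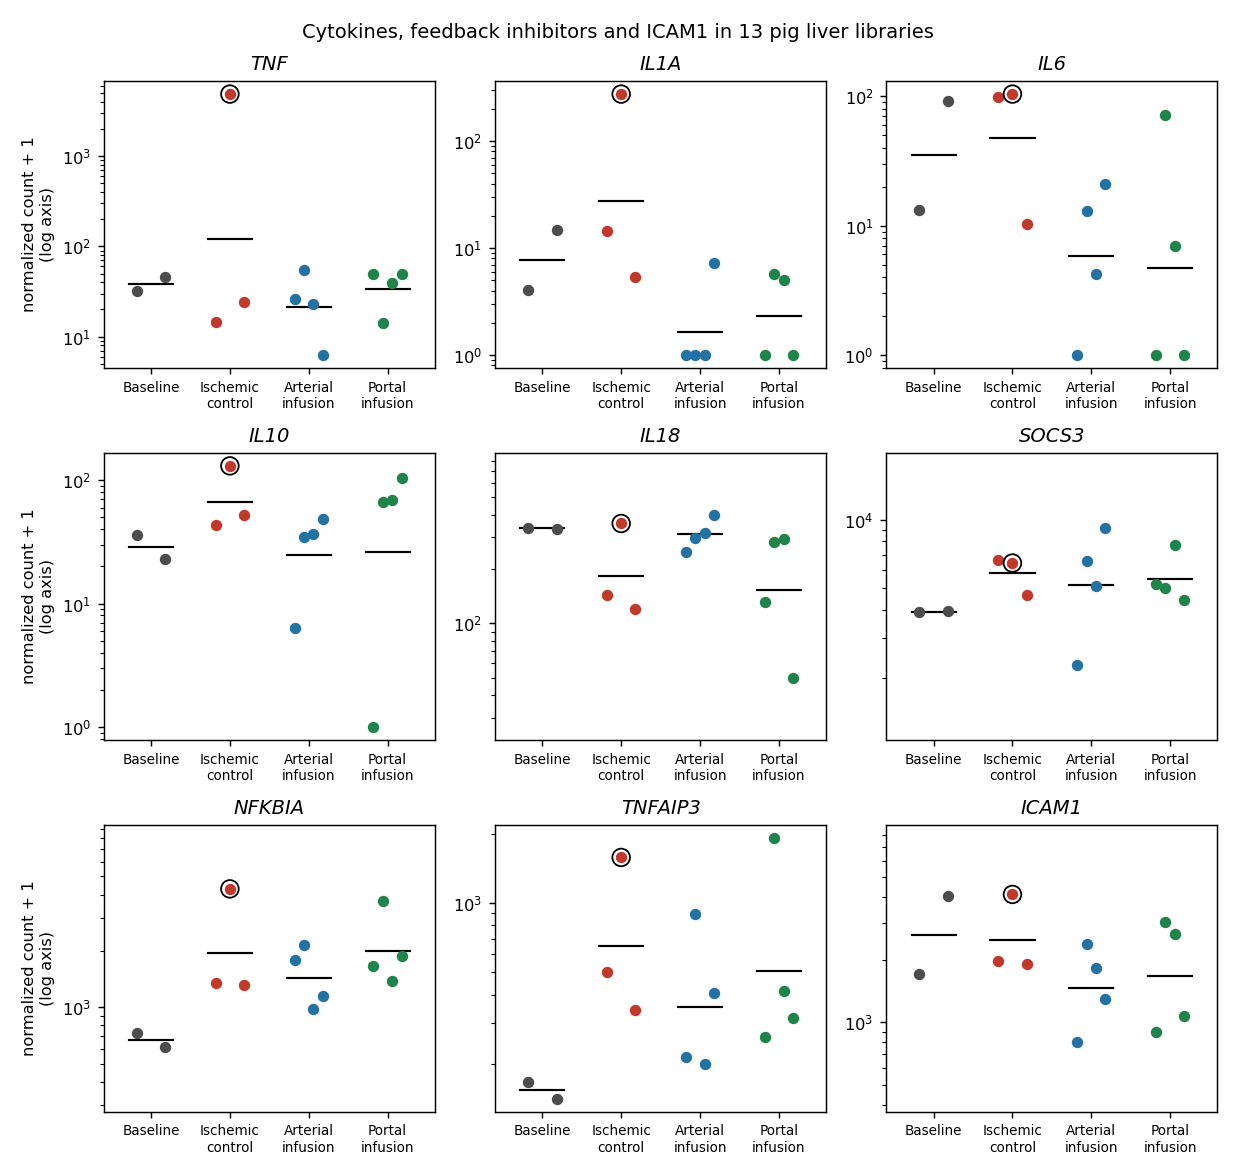
Normalized count plus 1 (log axis) of each of the 9 genes by group, 1 point per library, with ischemic control 2 ringed and bars at the group mean on the log scale. TNF is high in the ringed library alone, at 4887, whereas NFKBIA and TNFAIP3 are lowest in the baseline libraries.

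For the feedback inhibitors the differences were spread over many livers, whereas TNF was high in ischemic control 2 alone. NFKBIA, on chromosome 7 from 64508119 to 64510754, was at 727 and 609 at baseline. The controls were at 1343, 4290 and 1307, the arterial livers at 1779, 2150, 978 and 1147, and the portal livers at 1665, 3718, 1373 and 1873. Every one of the 11 livers at 6 h was above both baseline libraries. TNFAIP3, on chromosome 1 from 26474158 to 26489771, was also lowest in both baseline libraries. It was at 166 and 140.3 at baseline, at 502, 1574 and 342 in the controls, at 213, 893, 199.6 and 404.5 after arterial infusion, and at 262, 1918 and 414 in portal livers 1 to 3 and 315 in portal liver 4. Portal liver 2 was the highest library for TNFAIP3 and the second highest for NFKBIA although its TNF, at 13.1, was the second lowest of the 13.

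SOCS3, on chromosome 12 from 3643832 to 3647015, was at 3894 and 3922 at baseline. Controls were at 6598, 6421 and 4654, arterial livers at 2273, 6589, 5060 and 9198, and portal livers at 5170, 4974, 7716 and 4420. All libraries at 6 h lay above baseline except arterial liver 1, which was the lowest of the 13. ICAM1, the endothelial receptor for leukocyte integrins, lies on chromosome 2 from 69097136 to 69107722. It was at 1701 and 4047 at baseline, a range that held 6 of the other 11 libraries. The controls were at 1971, 4133 and 1906, the arterial livers at 803, 2391, 1832 and 1301, and the portal livers at 897, 3036, 2669 and 1076.

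Ischemic controls were set against baseline to show the difference after ischemia and reperfusion without cells. Surgery, anesthesia and elapsed time differ along with them, no group was sham-operated, and these cannot be told apart. TNF differed from NFKBIA and TNFAIP3 in how many controls carried the difference. NFKBIA was at 2313 ± 1710 (SD, n = 3) in controls and 668 ± 83.9 (SD, n = 2) at baseline, and TNFAIP3 at 806 ± 670 against 153 ± 18.1. Their log2 fold changes were 1.76 ± 0.62 (SE) and 2.36 ± 0.99 (SE), and no control overlapped baseline for either gene. TNF had a larger log2 fold change of 5.35 ± 1.95 (SE), and its groups overlapped. These 3 genes had an unadjusted p under 0.05 (0.0123, 0.0308 and 0.0154 in edgeR's quasi-likelihood test), which is 3 of 9 where 3.16% of all genes were higher at that level. Their Benjamini-Hochberg adjusted p was 0.978, above the threshold. In exact permutation tests, two-sided, p was 0.1 for NFKBIA, the smallest that 2 against 3 allow, 0.2 for TNFAIP3 and 1 for TNF.

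Of the other genes, IL10 had a log2 fold change of 1.34 ± 1.39 (SE) and SOCS3 of 0.59 ± 0.52 (SE). Both were higher in every control than at baseline (exact permutation p = 0.2 each). IL1A was at 3.46 ± 2.23 (SE), IL6 at 0.46 ± 1.95, IL18 at -0.73 ± 0.68 and ICAM1 at -0.12 ± 0.64, each with overlapping groups. In all, 4 of 9 genes lay above baseline without overlap, and 0 below, where 14.8% of all genes tested were above and 16.3% below. The log2 fold change was above 0 for 7 of 9 genes, with a median of 1.34, against 50.2% of all genes and a median of 0.

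When ischemic control 2 was left out, TNF changed direction and the inhibitors differed less. The log2 fold change of TNF turned to -1.02 ± 1.17 (SE) and that of IL1A was 0.13. IL6 was at 0.12, IL10 at 0.74, IL18 at -1.32, SOCS3 at 0.56 and ICAM1 at -0.53. NFKBIA was at 1.02 (unadjusted p = 0.079, edgeR) and TNFAIP3 at 1.49 (unadjusted p = 0.138, edgeR). None of the 9 genes kept an unadjusted p under 0.05 in the higher direction, where 0.96% of all genes did. The same 4 genes, IL10, SOCS3, NFKBIA and TNFAIP3, still lay above baseline without overlap, against 20.7% of all genes, and TNF and IL18 below it, against 22.2%. The median over the 9 genes was 0.13.

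**Figure D2:**
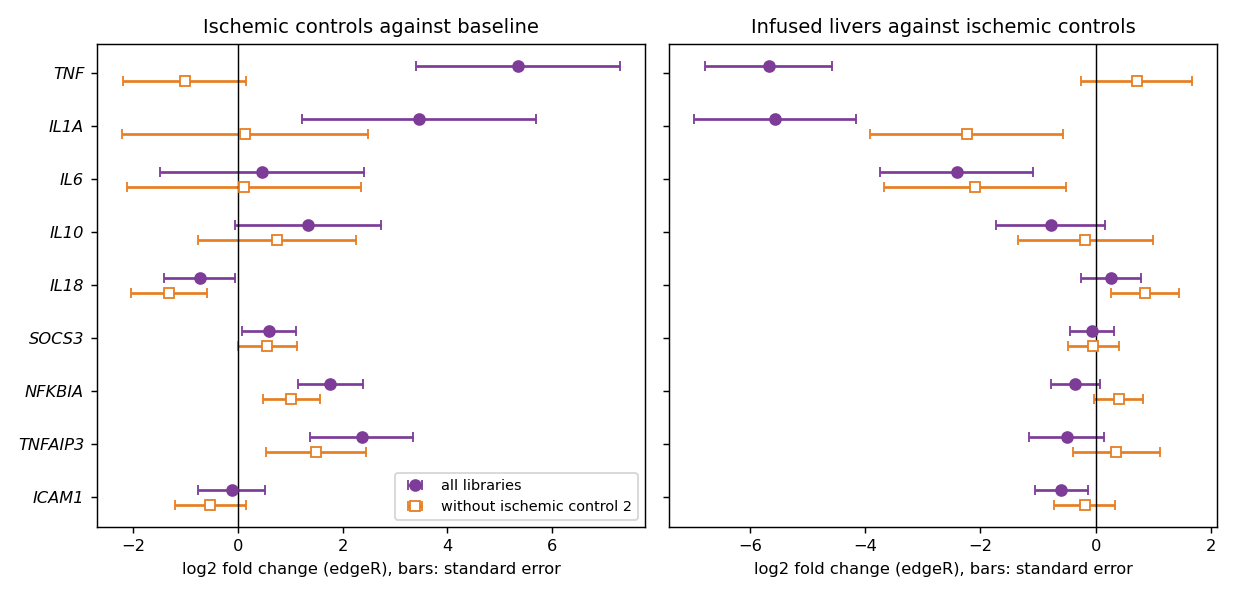
Log2 fold change of each gene in ischemic controls against baseline (left) and in all infused livers against ischemic controls (right), with the standard error as bars, over all libraries (circles) and without ischemic control 2 (squares). TNF moves from 5.35 to -1.02 on the left and from -5.67 to 0.71 on the right when that library is left out, while NFKBIA and TNFAIP3 stay above 0 on the left.

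All infused livers were compared with ischemic controls to see whether the genes differed after BM-MSC infusion. TNF was at 31.6 ± 17.9 (SD, n = 8) in the infused livers and 1641 ± 2810 (SD, n = 3) in controls, and IL1A at 1.87 ± 2.66 against 97.0 ± 153. The log2 fold changes were -5.67 ± 1.10 (SE) and -5.56 ± 1.41 (SE). The unadjusted p was 0.000122 and 0.00133 in edgeR's quasi-likelihood test and, adjusted over all genes, 0.823 and 1. These were 2 of 9 genes lower at an unadjusted p under 0.05, where 1.41% of all genes were. The exact permutation test, two-sided, gave p = 0.236 for TNF and 0.0182 for IL1A, unadjusted. IL1A was lower than every control in 6 of 8 infused livers, and TNF in 2 of 8.

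Both differences leaned on ischemic control 2. Without it TNF was at 18.3 ± 6.84 in the remaining 2 controls and the log2 fold change was 0.71 ± 0.97 (SE), in the opposite direction. IL1A was then at 8.89 ± 6.44 and the log2 fold change was -2.24 ± 1.67 (SE; exact permutation p = 0.0667), a p it also had without ischemic control 1. For IL6 the log2 fold change was -2.41 ± 1.33 (SE; exact permutation p = 0.0788) and -2.09 without it (exact permutation p = 0.178), with 14.03 ± 24.1 normalized counts in infused livers and 70.5 ± 53.0 in controls. Over each library left out in turn, its exact permutation p was between 0.0222, without ischemic control 3, and 0.178. When the 3 libraries with few genes of low count were left out, IL6 was at -1.74 ± 0.94 (SE; exact permutation p = 0.232), and IL1A at -4.99 ± 1.35 (SE; exact permutation p = 0.0536). Arterial liver 2, where IL1A was also at 0, was kept in.

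The inhibitors and ICAM1 did not differ detectably between infused livers and controls. The log2 fold change was -0.07 ± 0.38 (SE) for SOCS3, -0.35 ± 0.42 for NFKBIA, -0.50 ± 0.65 for TNFAIP3 and -0.60 ± 0.46 for ICAM1. IL10 was at -0.78 ± 0.95 and IL18 at 0.26 ± 0.52. Without ischemic control 2 NFKBIA was at 0.40, TNFAIP3 at 0.36, SOCS3 at -0.04, ICAM1 at -0.19, IL10 at -0.18 and IL18 at 0.85. None of the 9 genes separated the groups, and 0.564% of all genes did. The log2 fold change was above 0 for 1 of 9 genes and the median was -0.60, against 47.9% of all genes and a median of -0.02. With that library left out it was above 0 for 4 and the median was -0.04.

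The route of infusion was examined next, with each group against the same 3 controls and then against the other. TNF and IL1A were the genes with an unadjusted p under 0.05 in both, which is 2 of 9 where 0.94% of all genes were lower after arterial and 1.66% after portal infusion. For TNF the log2 fold change was -5.89 ± 1.47 (SE) after arterial and -5.46 ± 1.45 (SE) after portal infusion, and for IL1A -5.85 ± 1.89 (SE) and -5.27 ± 1.84 (SE). The controls are shared by both comparisons, and the adjusted p was 1 for each gene in edgeR's test. With ischemic control 2 left out TNF turned to 0.49 and 0.92, IL1A was at -2.51 and -1.97, and neither kept an unadjusted p under 0.05 (0.641 and 0.396 for TNF, 0.232 and 0.338 for IL1A, edgeR). Between arterial and portal infusion 0 of 9 genes had an unadjusted p under 0.05, where 2.4% of all genes did. IL18 was at 315 ± 62.1 after arterial and 189 ± 119 after portal infusion, a log2 fold change of 0.73 ± 0.53 (SE; two-sided exact permutation p = 0.143). NFKBIA was at 1514 ± 547 and 2158 ± 1060, a log2 fold change of -0.51 ± 0.45 (SE; p = 0.314 in the exact permutation test), and -0.07 without portal liver 2. For TNFAIP3 the value was -0.80 ± 0.70 (SE; exact permutation p = 0.543), and without that liver it turned to 0.39. SOCS3 was at 5780 ± 2900 and 5570 ± 1470.

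All 11 livers at 6 h, with and without cells, were also set against baseline. NFKBIA and TNFAIP3 were higher in 11 of 11 livers than in both baseline libraries, 2 of 9 genes where 3.3% of all genes were. They were also the 2 of 9 genes with an unadjusted p under 0.05 in the higher direction, where 2.85% of all genes were. The log2 fold change was 1.52 ± 0.55 (SE) for NFKBIA, from 668 ± 83.9 to 1966 ± 1070 (two-sided exact permutation p = 0.0256). It was 2.02 ± 0.89 (SE) for TNFAIP3 (exact permutation p = 0.0513). Adjusted over all genes, p was 0.86 for both in edgeR. Without ischemic control 2 the values were 1.28 (exact permutation p = 0.0152) and 1.73 (p = 0.0758 in the exact permutation test). Only 2 libraries stand for baseline, and with 1 of them left out the exact permutation p of both genes reached 0.25. SOCS3 was above both baseline libraries in 10 of 11 livers with a log2 fold change of 0.54 ± 0.45 (SE; exact permutation p = 0.256). IL18 was below both in 9 of 11 livers, at -0.55 ± 0.55 (SE; exact permutation p = 0.321). Since these livers include those of the comparisons above and both baseline libraries, the values are not separate support for them.

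The mean log2 level of the inhibitory genes (SOCS3, NFKBIA, TNFAIP3 and IL10) less that of TNF, IL1A, IL6 and IL18 was taken within each library, as a description without a test. It was 3.70 and 2.14 at baseline, 3.99, 1.71 and 4.84 in controls, 4.92, 5.24, 5.04 and 4.76 after arterial infusion and 4.61, 5.12, 4.88 and 6.68 after portal infusion. Only ischemic control 3 among the controls and baseline libraries reached the range of the infused livers. IL1A was at 0 in 5 of the 8 infused livers and IL6 in 3, and neither was at 0 in a control or baseline library. Such a 0 makes the difference larger, whereas the 0 of IL10 in portal liver 1 makes it smaller. The part of these zeros in the differences was not tested. Ischemic control 2 had the smallest difference although its inhibitors were the highest of all libraries, at 10.59, with its cytokines at 8.89 where the others were between 2.81 and 6.08. Portal liver 4 had the largest difference, and its IL1A and IL6 were at 0.

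**Figure D3:**
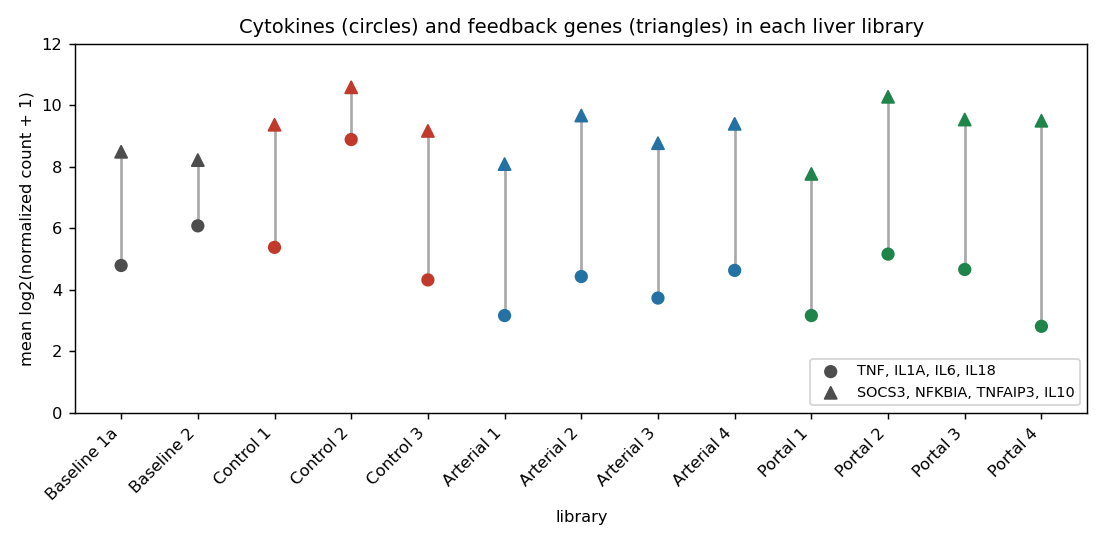
Mean log2(normalized count + 1) of TNF, IL1A, IL6 and IL18 (circles) and of SOCS3, NFKBIA, TNFAIP3 and IL10 (triangles) in each library, with a line joining both, coloured by group. Ischemic control 2 is the highest for both sets and has the shortest line, 1.71, and portal liver 4 the longest, 6.68.

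Pairs of cytokine and response gene were correlated over the 11 livers at 6 h on log2(normalized count + 1), 5 pairs in all. TNF and NFKBIA had Pearson r = 0.64 (permutation p = 0.0357, adjusted 0.171) and Spearman rho = 0.59 (permutation p = 0.0605, adjusted 0.256). Without ischemic control 2 alone r was 0.18 (permutation p = 0.61) and rho 0.45 (permutation p = 0.191). Leaving out ischemic control 2 and arterial liver 4, the libraries farthest from the median of TNF, gave r = -0.06, so that the Pearson r rests on them. TNF and TNFAIP3 gave r = 0.42 (permutation p = 0.204, adjusted 0.256) and rho = 0.05 (permutation p = 0.881, adjusted 0.881), and -0.28 without those libraries. TNF with ICAM1 gave r = 0.46 (permutation p = 0.158, adjusted 0.256) and rho = 0.11 (permutation p = 0.754, adjusted 0.881), and -0.35 without them. TNF with IL10 gave r = 0.20 (permutation p = 0.434, adjusted 0.434) and rho = 0.15 (permutation p = 0.675, adjusted 0.881), and -0.26 without them. IL6 and SOCS3 gave r = 0.55 (permutation p = 0.0685, adjusted 0.171) and rho = 0.52 (permutation p = 0.102, adjusted 0.256). That value was 0.35 without arterial liver 1 and portal liver 1, where IL6 was at 0, and 0.55 without ischemic control 2. Each group holds too few livers for a correlation of its own.

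NFKBIA and TNFAIP3 were compared with the baseline libraries included, which the pairs above were not, and followed each other closely there. By Pearson r of log2 CPM (reads per M, after TMM scaling) over the 13 libraries, TNFAIP3 was the nearest of 16480 genes to NFKBIA, and NFKBIA the nearest to TNFAIP3, with r = 0.879. Without ischemic control 2 each was still the nearest to the other, with r = 0.838 over 12 libraries. Both genes were lowest at baseline, and portal liver 2, the highest or second highest library for both, was not left out. How far the value rests on these libraries was not tested. The points share depth and library preparation, and the value is a description.

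**Figure D4:**
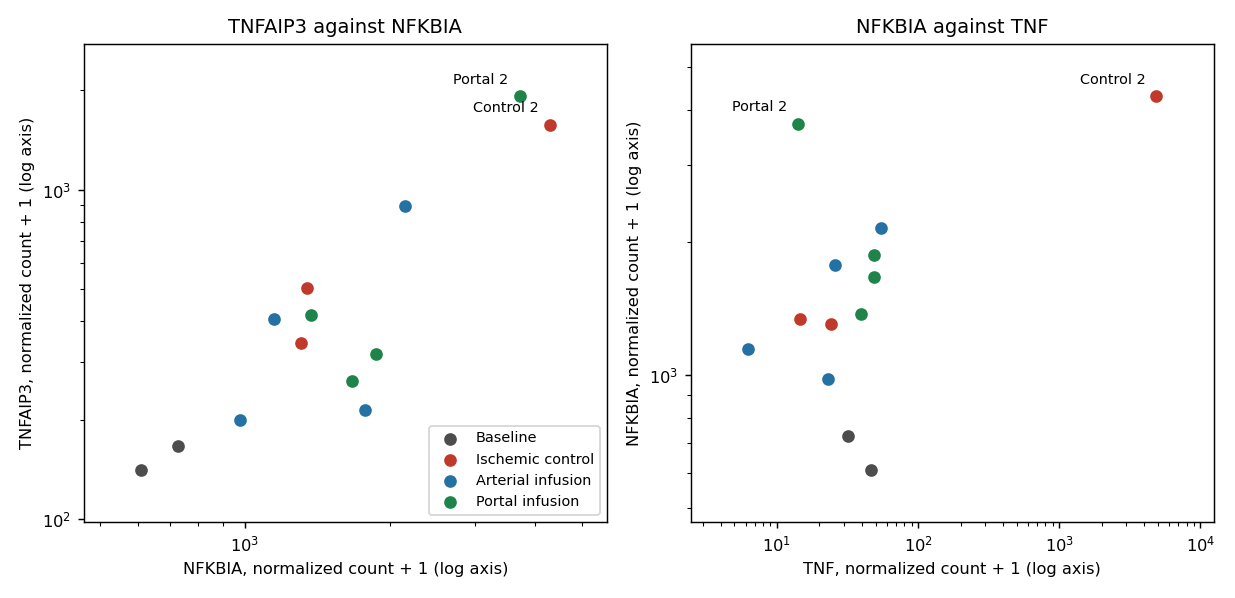
TNFAIP3 against NFKBIA (left) and NFKBIA against TNF (right), normalized count plus 1 on log axes, 1 point per library coloured by group. The left points rise together from baseline to ischemic control 2 and portal liver 2, whereas on the right portal liver 2 has high NFKBIA, at 3718, with TNF at 13.1.

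A wider set of genes, listed by name as feedback inhibitors, was examined in the same way. The role of each in these livers was not tested. Of 17 further inhibitor genes, all tested, 6 had an unadjusted p under 0.05 in the higher direction in ischemic controls against baseline, where 3.16% of all genes did, and none in the lower. They were NFKBIB, with a log2 fold change of 1.28 ± 0.58 (SE), and NFKBIE, with 1.63 ± 0.64, which encode the IkB proteins beta and epsilon, and BCL3, a nuclear IkB protein, with 1.07 ± 0.46. TNIP1, a partner of A20, was at 1.04 ± 0.44, the MAP kinase phosphatase DUSP1 at 2.58 ± 0.93 and the STAT5-induced inhibitor CISH at 1.18 ± 0.48. The adjusted p was 0.978 for each in edgeR's test, and each was higher in all 3 controls than in both baseline libraries. These 6 of 17 compare with 14.8% of all genes above baseline without overlap, and 1 of 17, CYLD, lay below, where 16.3% of all genes did. The median over the 17 was 0.85 and 13 were above 0. Leaving out ischemic control 2, the median was 0.27 and 11 were above 0. The values were then 0.54 for NFKBIB, 1.11 for NFKBIE, 1.10 for BCL3, 1.03 for TNIP1, 1.27 for DUSP1 and 0.84 for CISH, and BCL3 alone had an unadjusted p under 0.05 (0.0449 in edgeR's test).

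Against the mean of the baseline libraries, NFKBIE, TNIP1 and CISH were higher in 11 of 11 livers at 6 h, as were NFKBIA and TNFAIP3. These are 5 of 20 inhibitors, where 6.09% of all genes tested were above that mean in every liver. NFKBIE in arterial liver 3 and CISH in arterial liver 1 nevertheless lay below baseline library 1a, so that their groups overlapped. NFKBIE, TNIP1, CISH and DUSP1 had an unadjusted p under 0.05 for the 11 livers (0.0329, 0.0416, 0.0393 and 0.0386 in edgeR's test; adjusted p = 0.86 each). These were 4 of the 17 further inhibitors, where 2.85% of all genes were higher at that level. Without ischemic control 2 it was 2 of the 17. SOCS3, NFKBIB, BCL3 and DUSP1 were above the baseline mean in 10 livers. Others did not follow. The mRNA-destabilizing protein gene ZFP36 and SOCS1 were higher in 8, NFKBIZ in 4 and the interleukin-1 receptor kinase inhibitor IRAK3 in 3. The deubiquitinase CYLD and the STAT3 inhibitor PIAS3 were higher in 1 liver and the STAT phosphatase PTPN2 in 0. Over the 3 and the 17 inhibitors together, ischemic control 2 had 16 of 20 above baseline and the largest median difference, 1.49 on the log2 scale. The other livers had between 10 and 16 above, with medians between -0.06 and 0.80.

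**Figure D5:**
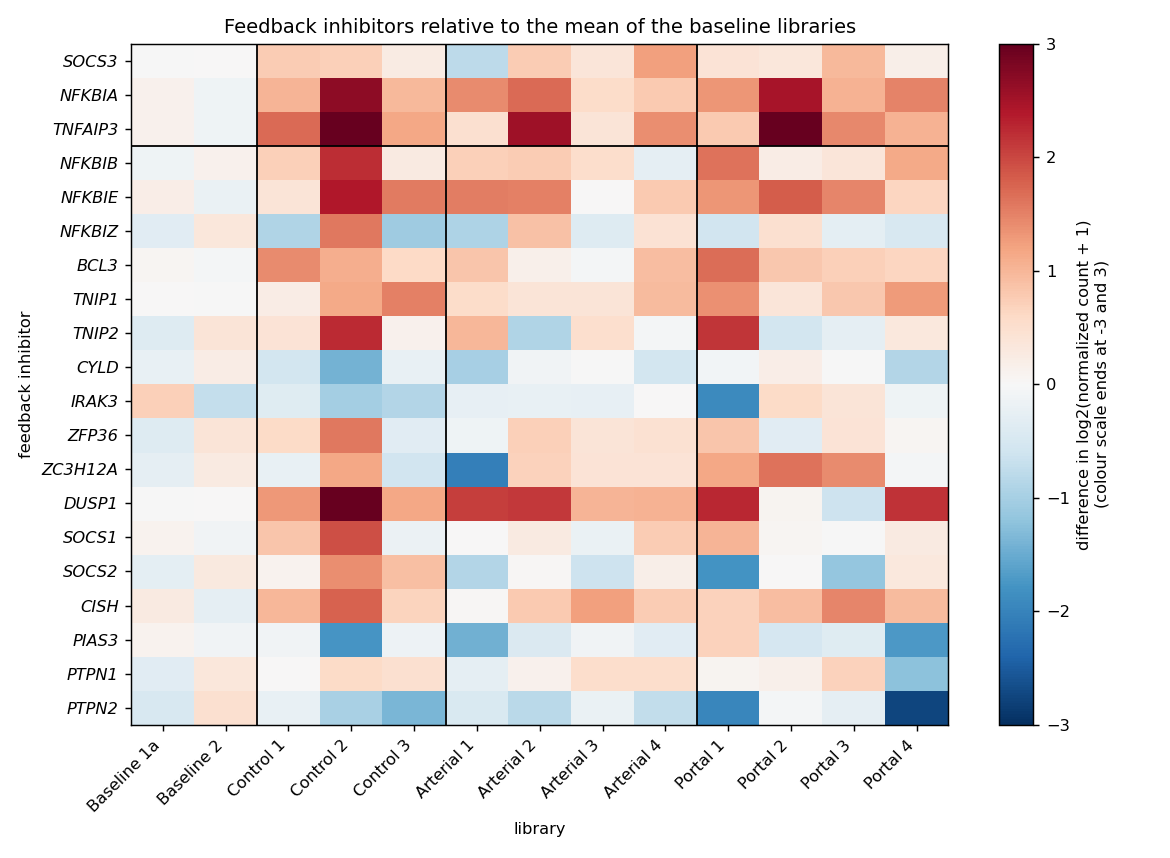
Difference in log2(normalized count + 1) from the mean of the baseline libraries for 20 feedback inhibitors (rows) in each library (columns), coloured from blue (lower) to red (higher), the scale ending at -3 and 3. The rows of NFKBIA, TNFAIP3, NFKBIE, TNIP1 and CISH are above 0 in all 11 livers at 6 h, while CYLD, PIAS3 and PTPN2 are mostly below 0.

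In the infused livers against controls 1 of these 17 was lower at an unadjusted p under 0.05, against 1.41% of all genes. It was SOCS2, an inhibitor of growth hormone signalling, with a log2 fold change of -1.24 ± 0.42 (SE; adjusted p = 1 in edgeR's test). It was -0.95 without ischemic control 2 (unadjusted p = 0.0724, edgeR).

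The signal transducers were split in direction. In ischemic controls against baseline 6 of 20 lay above and 5 below without overlap, where 14.8% and 16.3% of all genes did. At an unadjusted p under 0.05 there was 1, against 4.37% of all genes in either direction. It was NFKB2, which encodes the p100 precursor of the second NF-kB pathway and is itself induced by NF-kB. It was at 534 and 624 at baseline and 964, 2511 and 1818 in controls, a log2 fold change of 1.59 ± 0.53 (SE). It was 1.30 without ischemic control 2. NFKB2 was above both baseline libraries in all 11 livers at 6 h, with a log2 fold change of 1.28 and a standard error of 0.47, and so was TNIP1, at 0.85 and 0.38. The adjusted p of both was 0.86 in edgeR's test. They were 1 of 20 transducers and 1 of 17 further inhibitors above baseline without overlap, where 3.3% of all genes were. TYK2, a kinase of the JAK family that serves cytokine receptors, went the other way. It was at 1095 and 1021 at baseline and at most at 849.6 in the 11 livers at 6 h, a log2 fold change of -1.08 ± 0.43 (SE; unadjusted p = 0.0233 and adjusted p = 0.86 in edgeR; exact permutation p = 0.0385). It was the 1 of 20 transducers below baseline without overlap and the 1 lower at an unadjusted p under 0.05, where 3.97% and 1.93% of all genes were. In infused livers against controls CD14 was lower (unadjusted p = 0.0457, edgeR), and without ischemic control 2 that p was 0.884. The median over the transducers was -0.25 in controls against baseline and 9 of 20 were above 0. Without that library it was -0.06. NFKB1 was at 850 and 1193 at baseline and 941, 327.5 and 994 in controls. REL was at 218 and 263 against 288, 224 and 263. STAT3 was at 25150 and 37620 against 29230, 14870 and 15770, the highest value being in a baseline library.

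Among 15 other inflammatory cytokines, 13 had a row, 11 were tested and 0 had an unadjusted p under 0.05 in controls against baseline, where 4.37% of all genes did. The median log2 fold change was 0.51, and 0.86 without ischemic control 2. In infused livers against controls IL11 was lower and IL33 higher at an unadjusted p under 0.05, 1 of 11 genes in each direction, where 1.41% and 0.734% of all genes were. IL11, a cytokine of the interleukin-6 family, was at 192.2, 17.51 and 35.41 in controls and between 0 and 26.99 in the infused livers. Its log2 fold change was -3.09 ± 1.27 (SE; unadjusted p = 0.028 and adjusted p = 1 in edgeR; exact permutation p = 0.0485), and -1.40 without ischemic control 1 (unadjusted p = 0.405, edgeR). IL33, an alarmin kept in the nucleus, was at 454.9, 94.56 and 220.4 in controls and between 149.8 and 1858 in the infused livers, with overlapping groups. Its log2 fold change was 1.34 ± 0.63 (SE; unadjusted p = 0.0497 and adjusted p = 1 in edgeR; exact permutation p = 0.103), and 0.94 without ischemic control 2 (unadjusted p = 0.179, edgeR). The interleukin-6 family members OSM and LIF varied within the controls. OSM was at 11.6 and 7.38 at baseline and at 21.4, 24.5 and 119 in controls. It was at 76.7, 4.64, 0.811 and 96.4 after arterial infusion, and at 0, 11.2, 5.02 and 0 after portal infusion. OSM was the 1 of 11 below every control after portal infusion, and the 1 lower at an unadjusted p under 0.05 (edgeR). Of all genes, 2.33% and 1.66% were. It was also the 1 of 11 higher after arterial than portal infusion at that level, where 1.09% of all genes were. Its zeros were in portal livers 1 and 4, with few genes of low count. LIF was at 16.2 and 78.1 at baseline and at 111, 0 and 56.4 in controls. LTA, the neighbour gene of TNF, was at 0 in ischemic control 2, and LTB at 129.6 there was below arterial liver 1 and portal liver 1. Neither gene was highest in that library.

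The receptors also lacked a common direction. Of 14 listed receptors and soluble antagonists, 12 were tested and 0 had an unadjusted p under 0.05 in controls against baseline, where 4.37% of all genes did. The median was 0.21, and 0.19 without ischemic control 2. IL1R1, the signalling receptor of interleukin-1, was at 39070 and 72220 at baseline and between 9555 and 39150 in the 11 livers at 6 h, 10 of which were below both. Its log2 fold change there was -1.05 ± 0.48 (SE; unadjusted p = 0.0456 and adjusted p = 0.86 in edgeR; exact permutation p = 0.0641), and -0.59 without baseline library 2 (unadjusted p = 0.412, edgeR). TNFRSF1A, the main TNF receptor, was at 2773 and 2805 at baseline and 3710, 4514 and 3030 in controls, all above baseline. TNFRSF1B was at 2437 and 2760 against 2532, 2835 and 3750. IL1R2, the decoy receptor of interleukin-1, was at 153 and 191 at baseline and 255.5, 727 and 289.8 in controls. In the portal livers it was at 131, 251, 129 and 145, below every control. TNFRSF1A and IL1R2 were the 2 of 12 receptors above baseline without overlap in controls, and OSMR the 1 below. Of all genes, 14.8% were above and 16.3% below. IL1R2 was the 1 of 12 below every control after portal infusion, where 2.33% of all genes were. The receptor chains of interleukin-6, IL6R and IL6ST, had overlapping groups, as did IL10RA.

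Adhesion and inflammasome genes were few. Of 5 tested adhesion genes 0 had an unadjusted p under 0.05 in controls against baseline, where 4.37% of all genes did, with a median of -0.45, and -0.24 without ischemic control 2. MADCAM1, a ligand of lymphocyte integrins, was higher in the 11 livers at 6 h than at baseline, with overlapping groups (unadjusted p = 0.0327 and adjusted p = 0.86 in edgeR; exact permutation p = 0.0769). VCAM1 was at 720.4 and 1466 at baseline and at 561, 1236 and 543.5 in controls. Of 4 tested inflammasome genes 0 passed that level and the median was 0.75, and 1.03 without ischemic control 2. NLRP3, the sensor, was at 53.2 and 71.7 at baseline and at 94.1, 109 and 211 in controls, all above baseline. With PYCARD it made 2 of 4 inflammasome genes above baseline without overlap, and 0 below. Of all genes, 14.8% were above and 16.3% below. CASP1, whose product cuts the IL18 precursor, was at 144 and 74.9 against 84.7, 61.3 and 274. IL18BP and SELE had no row under their symbols.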

How the data were processed

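Liver biopsies of 13 libraries were sequenced. RNA was extracted with a miRNeasy kit per the labels and a NucleoSpin kit per the study's methods, and messenger RNA was selected on poly-T beads for non-directional, paired-end libraries. The authors removed low-quality reads, used HISAT2 to map the others to Sscrofa11.1 and FeatureCounts with Ensembl genes to count them, and deposited raw, unnormalized counts per gene. Tool versions and the handling of reads mapping to several places are not given in the sources used here. Groups and replicate numbers come from the labels, which name each column, and 0 columns had no sample. No library was a copy of another of its group, the smallest chi-square per gene being 72.1. Where libraries of a group may share an origin the labels do not say so, and p-values measure the spread between these samples.

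Counts were tested by the quasi-likelihood method of edgeR 4.0.16 under R 4.3.3 after filterByExpr and TMM scaling, all 4 groups in 1 fit, with p adjusted by Benjamini-Hochberg and a threshold of 0.05. Levels are counts divided by DESeq2 1.42.0 size factors. Exact permutation tests and correlations used log2(normalized count + 1), the latter with 100000 resamples. Tests were tried on simulated counts first. Reads carry no molecular identifiers, so a count of 0, which allows up to 3 reads, covers counting error only. Total counts bear on weak genes most, at 18975413 to 35949178 per library. Coordinates are RefSeq's on Sscrofa11.1, matched by gene.

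The genes, lists and tests were chosen with earlier results of these data known. Named are the 10 genes, a set of pathway genes given by name and not by how they moved, members of the lists with an unadjusted p under 0.05 in controls against baseline, infused livers against controls or all livers at 6 h against baseline, and per gene the 3 genes of most similar pattern. As alternatives, DESeq2 was run on all libraries or on the groups compared, edgeR on the groups compared, with upper quartile or RLE scaling, without a filter or with at least 10 counts in every library, beside limma 3.58.1 voom with quality weights, a replicate block, a pseudocount of 0.5 and each library left out. Leaving out arterial infusion 1, portal infusion 1 and portal infusion 4 together was added after the data were seen. Replicate numbers are not stated to pair livers, and over 16 same-numbered pairs the correlation of deviations from the group means was between -0.422 and 0.428, with 5 over 0.1, so samples were not treated as paired. Sequences were not used here.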

Additional observations from a re-analysis of the deposited data

Results flagged for a closer look

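Within the infused groups of 4 livers, the gap of the highest or lowest liver to its nearest neighbour was compared with the group's whole range for the 9 genes, 18 groups in all. Of groups with normally distributed values about 1 in 20 would stand out in this way, and 3 did. A group with 3 values at 0 and 1 above always stands out, and the 18 groups share libraries. That rate therefore need not hold here, and the 3 are not read against it. IL1A was at 6.29 normalized counts in arterial infusion 4, and at 0 in the other 3 arterial livers. IL10 was at 5.35 in arterial infusion 1, against 33.4 to 47.2 in the other arterial livers. IL10 was at 0 in portal infusion 1, against 65.4 to 103 in the other portal livers. Arterial infusion 1 and portal infusion 1 are 2 of the 3 libraries with the fewest genes of 1 to 9 reads, and 18.8% and 39.2% of 1409 genes of similar level as IL10 were at 0 in them, against at most 6.17% in the others apart from portal infusion 4, at 27.8%. The part of this in the low IL10 values was not tested.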

How the results depend on the processing

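In ischemic controls against baseline the count of genes past the threshold, 0 as reported, was 5 with DESeq2 over all libraries, 166 with DESeq2 over only the groups compared, and 30 with no filter on low counts. In infused livers against controls it was 1 with DESeq2 over all libraries and 19 with no filter. Without the filter it was also 11 for arterial infusion against controls, 14 for portal infusion against controls and 5 for arterial against portal infusion. DESeq2 over all libraries called 4 and 1 in the latter pair, and 3 for portal infusion over only the groups compared. For all livers at 6 h against baseline, DESeq2 called 14, which is 1 fit for both sample choices, edgeR without a filter 28, and limma's voom 111. Of the 9 genes, DESeq2 over only the groups compared called TNFAIP3 in controls against baseline (log2 fold change 2.44, adjusted p = 0.0404), and edgeR without a filter called TNF there (adjusted p = 0.00401) and TNF and IL1A in infused livers against controls (adjusted p = 1.15e-12 and 0.0116). It also called TNF in arterial and in portal infusion against controls (adjusted p = 2.02e-07 and 1.46e-06). The count was 0 whichever library was left out, and 0 with the replicate number as a block in all 6 comparisons. In portal infusion against controls the median log2 fold change of all genes was -0.17 under the block and -0.02 without it.

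Several directions turned. With voom, controls against baseline gave -0.11 for TNF and -0.32 for IL6, and infused livers against controls gave 0.14 for SOCS3, 0.19 for NFKBIA, 0.34 for TNFAIP3 and 0.01 for ICAM1. Without the 3 libraries poor in low counts SOCS3 was at 0.16 there. With each library left out in turn, controls against baseline ranged from -1.02 to 6.01 for TNF, -0.37 to 2.45 for IL6 and -0.61 to 0.58 for ICAM1. Infused livers against controls ranged from -6.33 to 0.71 for TNF, -0.06 to 0.85 for IL18, -0.24 to 0.06 for SOCS3, -0.67 to 0.40 for NFKBIA and -1.10 to 0.36 for TNFAIP3. For TNF against controls the range was -6.53 to 0.49 after arterial and -6.14 to 0.92 after portal infusion. Arterial against portal infusion ranged from -1.41 to 0.39 for TNFAIP3. On the scale of the exact permutation tests the ranges were -1.04 to 3.16 for TNF in controls against baseline, and in infused livers against controls -3.68 to 0.52 for TNF, -0.30 to 0.04 for SOCS3, -0.50 to 0.36 for NFKBIA and -1.07 to 0.03 for TNFAIP3. Without ischemic control 2 the correlation was -0.19 for TNF and TNFAIP3, -0.12 for TNF and ICAM1 and -0.27 for TNF and IL10. A pseudocount of 0.5 moved the within-liver difference after arterial infusion from 4.99 to 5.27. The cause of these changes was not tested, except that a filter or fewer samples change the genes tested. Few libraries limit all of these values, and IL1A, IL6, IL10 and TNF also had few reads in most libraries.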

Other observations

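The genes with a pattern most like each of the 9 were found by Pearson r of log2 CPM over 13 libraries, as a description. SOCS3 was nearest to SLPI, a secreted protease inhibitor of epithelia and neutrophils, with r = 0.841, and 0.846 without ischemic control 2. TNF was nearest to MASP2, a complement protease made by the liver, with r = 0.889, which was 0.666 without that library. For IL10 the nearest gene was POT1, for IL18 KANSL2 and for IL6 and ICAM1 genes without a symbol, followed by NTF3 and by FHIT. IL1A was nearest to a gene without a symbol, followed by MTUS1.

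Ischemic control 2 was over 10 times the next library for 6 of the 16481 genes, which were looked up after their values were seen. They include the chemokine genes CCL3L1, at 5542 against at most 182 normalized counts elsewhere, and CCL4, at 8372 against at most 441, besides TNF and IL1A. The others were SCGB1A1, an airway secretoglobin, at 1882 against at most 178, and a gene without a symbol. The tumor necrosis factor family member TNFSF9 followed, at 849 against at most 85.9.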
